A study of Homo sapiens with 18 samples.

Results

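The effect of siRNA against CHD4 (siCHD4) was compared between cells pretreated with siRNA against DNMT1 (siDNMT1) and cells given decitabine, in SW48 cells, a line established from a human colon adenocarcinoma. The quantity tested for each gene was the siCHD4 effect with siDNMT1 minus the siCHD4 effect with decitabine, over 12 of the 18 RNA sequencing libraries of the series, 3 in each of 4 groups. In the siDNMT1 background, cells received siDNMT1 on days 1, 3 and 5, then siCHD4 or control siRNA on days 7 and 8, with RNA harvested on day 11. In the decitabine background, cells received 50 nM decitabine on days 1, 2 and 3 and siCHD4 or control siRNA on days 1 and 2, with RNA harvested on day 5. Control siRNA here names the libraries titled con. Test siRNA therefore followed siDNMT1 but was given together with decitabine, and agent, order and sampling day cannot be told apart between the backgrounds. Whether the 3 libraries of a group are separate cultures is not in the labels. The limma p-values therefore reflect only the spread among libraries within groups, taken over all 18, which may be technical.

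CHD4 is the motor of NuRD, a repressive complex that slides nucleosomes and removes acetyl groups from histones. DNMT1 copies DNA methylation onto newly made strands, and decitabine, a nucleoside drug, enters replicating DNA and locks DNA methyltransferases onto it. Promoters rich in CpG, the dinucleotide that DNMT1 methylates, are silenced by methylation in many colon cancers, and cancer-testis genes, normally active in germ cells, are among the genes known to return when methylation is lost.

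Expression was deposited as FPKM, fragments scaled to transcript length and library size, and the test covered 12809 genes that reached 1 FPKM in 3 or more of the 18 libraries. Effects and differences are given on the log2(FPKM + 1) scale, where changes of low genes look smaller than they are, and genes with an adjusted p below 0.05 in limma are called. Absolute depth is unknown for these values, but the step between low values showed that the libraries differed in relative depth. One library stood apart. In control siRNA with decitabine replicate 0, 1 fragment was worth 3.93 times as much FPKM as in control siRNA with siDNMT1 replicate 1, against 0.564 to 1.05 times in the other libraries. Its residual SD was 0.471 log2 units, against 0.264 to 0.414 in the others. The main counts and some of the named genes are given with and without it, and other named genes only with it. Summed colon epithelial markers (CDH1, KRT8, KRT18 and 5 more) reached 1050 to 2518 FPKM in all 12 libraries, mostly from KRT8 and KRT18. EPCAM averaged 182 to 227 FPKM in the 4 groups, but LGALS4 only 0.0691 to 0.154 FPKM. Under siCHD4 the means of KRT8, KRT18 and CLDN7 were lower than under control siRNA in both backgrounds, and those of EPCAM, KRT19 and CDH1 higher. Most markers of the labelled epithelial cell type were thus expressed throughout.

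CHD4 itself was lowered unequally in the backgrounds. With siDNMT1, CHD4 measured 29.0, 27.1 and 29.1 FPKM under siCHD4, against 63.7, 67.1 and 73.9 FPKM under control siRNA. With decitabine, it measured 55.6, 56.5 and 52.6 FPKM under siCHD4, against 66.8, 80.2 and 81.5 FPKM under control siRNA. The groups did not overlap in either background, but 41.6% of the control mean remained with siDNMT1 and 72.1% with decitabine. Over all genes tested, siCHD4 and control siRNA libraries did not overlap for 70.1% with siDNMT1 and 27.1% with decitabine. The log2 change was -1.24 ± 0.14 (SE; adjusted p = 7.64e-06) with siDNMT1 and -0.46 ± 0.14 (adjusted p = 0.0752) with decitabine, where it reached -0.55 (adjusted p = 0.0449) without control siRNA with decitabine replicate 0. An exact two-sided permutation test gave p = 0.1 in each background, the smallest that 3 against 3 libraries allow. The difference of the CHD4 changes was -0.77 ± 0.19 log2 (adjusted p = 0.0289). It was -0.68 (adjusted p = 0.0533) without the library that stood apart, and of 12 single libraries left out in turn the call held only for siCHD4 with siDNMT1 replicate 1 and control siRNA with decitabine replicates 1 and 2. In bulk RNA, fewer cells of a type and less RNA per cell cannot be told apart, so a shallower mean depletion does not show whether all cells or part of them lost CHD4.

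DNMT1 showed no called change with siCHD4 in either background. With siDNMT1 it measured 12.6, 11.0 and 12.8 FPKM under siCHD4, against 11.2, 12.2 and 13.5 FPKM under control siRNA. In the decitabine background it measured 52.0, 53.6 and 44.7 FPKM under siCHD4, against 53.3, 48.3 and 53.4 FPKM under control siRNA. The DNMT1 transcript was thus lower in the siDNMT1 background than in the decitabine background in all libraries, and its siCHD4 effects differed by 0.03 ± 0.16 log2 (adjusted p = 0.927).

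**Figure D1:**
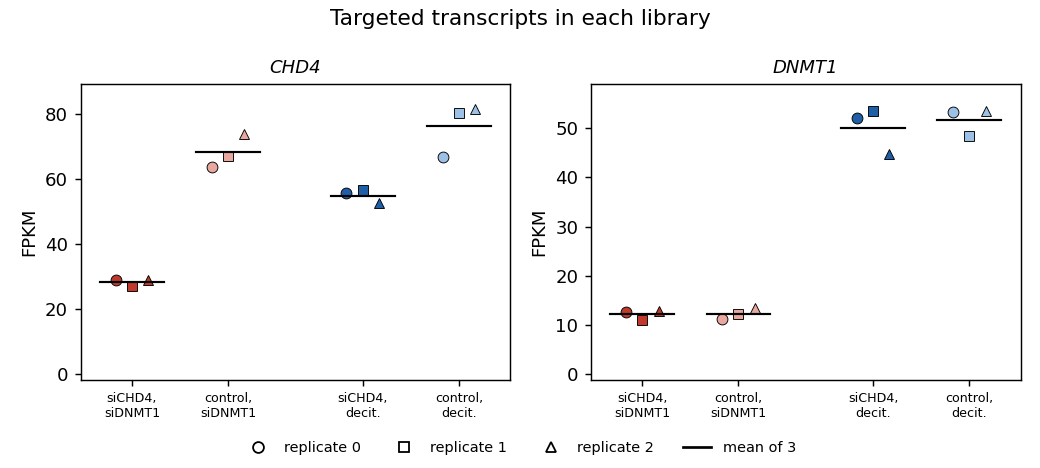
FPKM of CHD4 and DNMT1 in each library of the 4 groups, with siDNMT1 at the left and decitabine (decit.) at the right of each panel; symbols are replicates and bars are means of 3. CHD4 under siCHD4 lies at 27.1 to 29.1 FPKM with siDNMT1 and at 52.6 to 56.5 FPKM with decitabine, and DNMT1 is near 12 FPKM with siDNMT1 in both siRNA groups.

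With siDNMT1, siCHD4 raised 3175 genes (24.8% of those tested) and lowered 3148 (24.6%), together 49.4% of genes. With decitabine it raised 418 (3.26%) and lowered 168 (1.31%), together 4.57%. The difference itself was called for 1076 genes (8.4%), of which 533 were higher (4.16%) and 543 lower (4.24%) with siDNMT1. The absolute effect was larger with siDNMT1 in 1058 of the 1076 and larger with decitabine in 18. Of the 533 higher genes, 406 were raised by siCHD4 with siDNMT1 and not called with decitabine, and 119 were raised in both backgrounds. Of the 543 lower genes, 505 were lowered with siDNMT1 and not called with decitabine, and 28 were lowered in both. The balance of directions moved with the processing: there were 799 higher and 516 lower genes with no filter, 637 and 441 with median-ratio rescaling, and 295 and 510 with a filter at 5 FPKM. A difference of at least 1 log2 unit was seen for 149 higher and 18 lower genes.

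Without control siRNA with decitabine replicate 0, 384 genes were higher and 423 lower, and 684 of the 1076 stayed called with no change of sign. The count depended more on other libraries: the total fell to 308 and 370 without siCHD4 with siDNMT1 replicates 0 and 2, to 343 and 359 without control siRNA with siDNMT1 replicates 0 and 1, and to 643 and 320 without siCHD4 with decitabine replicates 0 and 2. Without siCHD4 with decitabine replicate 1, 327 genes were lower.

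The backgrounds shared direction more than size. Among the 3175 genes raised with siDNMT1, 87.2% had a positive effect with decitabine, and among the 3148 lowered genes 84.4% had a negative one. Genes raised in both backgrounds numbered 395, which is 12.4% of the siDNMT1 list and 94.5% of the decitabine list. Genes lowered in both numbered 142, which is 4.51% of the siDNMT1 list and 84.5% of the decitabine list. The decitabine effect as a share of the siDNMT1 effect had a median of 0.325 over the raised genes and 0.294 over the lowered genes, against 0.373 for CHD4. For the 75 genes raised by at least 2 log2 units with siDNMT1, the median share was 0.470. These genes were selected by their siDNMT1 effect, so the shares are descriptions, and over all 12809 genes the effects had Pearson's r of 0.459 and Spearman's rho of 0.615, genes not being independent replicates.

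**Figure D2:**
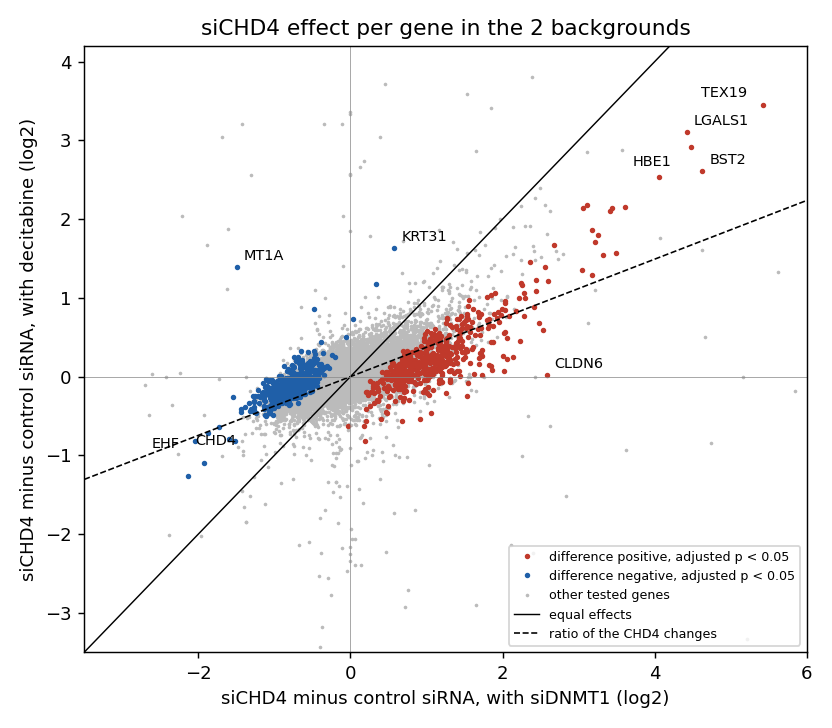
The siCHD4 effect per gene with siDNMT1 (x axis) against decitabine (y axis), both in log2(FPKM + 1); red and blue points are genes whose difference is positive or negative with adjusted p below 0.05. The solid line marks equal effects and the dashed line the ratio of the CHD4 changes, 0.373; CHD4 lies on the dashed line by construction, TEX19, LGALS1 and KRT31 lie above it and CLDN6 below, and 35 genes lie outside the axes.

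Many, but not all, of the largest positive differences belonged to genes raised by siCHD4 with siDNMT1 over low control levels. CLDN6, a tight junction protein of embryonic epithelia (chr16:3064713-3070072, GRCh37), measured 7.57, 6.57 and 6.95 FPKM under siCHD4 with siDNMT1, against 0.266, 0.390 and 0.375 FPKM under control siRNA with siDNMT1. Its decitabine libraries held 0.730, 0.501 and 0.400 FPKM under siCHD4, against 1.15, 0.312 and 0.247 FPKM under control siRNA. All 3 siCHD4 libraries were high in the siDNMT1 background, whereas the groups overlapped in the decitabine background. The difference was 2.56 ± 0.24 log2 (adjusted p = 9.16e-05) and 2.31 (adjusted p = 2.19e-05) without control siRNA with decitabine replicate 0, the library with the highest CLDN6 of its group, and the call held in all 22 alternatives. CLDN6 passed the filter only through the siCHD4 libraries with siDNMT1.

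Promoters of 3 genes are shown as examples of 3 patterns of response: CLDN6, raised with siDNMT1 and not called with decitabine; MAGEC2, raised in both backgrounds and further with siDNMT1; and KRT31, raised further with decitabine. Each run is the 250 bases before the start of the gene in RefSeq (GRCh38.p14), 5′ to 3′ on the gene's strand, with CpG dinucleotides in capitals. The CLDN6 run (chr16:3018184-3018433, minus strand) holds 18 CpG, and 36.5% of all RefSeq promoter windows of this length hold at least as many. The MAGEC2 run (chrX:142205291-142205540, minus strand) holds 6, matched or passed by 61.3%, and the KRT31 run (chr17:41397609-41397858, minus strand) holds 2, matched or passed by 84.6%. The number of CpG varied widely among other genes with large positive differences: the same window held 2 for BST2, 0 for DHRS2, 5 for APOE, 6 for IL1RAPL1 and 36 for ENTPD2. DNA methylation was not measured in these data.
CLDN6: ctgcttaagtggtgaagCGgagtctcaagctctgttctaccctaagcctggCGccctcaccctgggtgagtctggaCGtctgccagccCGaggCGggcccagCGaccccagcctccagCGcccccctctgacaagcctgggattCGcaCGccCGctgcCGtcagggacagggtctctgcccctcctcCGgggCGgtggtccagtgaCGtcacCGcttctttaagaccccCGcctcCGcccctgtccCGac
MAGEC2: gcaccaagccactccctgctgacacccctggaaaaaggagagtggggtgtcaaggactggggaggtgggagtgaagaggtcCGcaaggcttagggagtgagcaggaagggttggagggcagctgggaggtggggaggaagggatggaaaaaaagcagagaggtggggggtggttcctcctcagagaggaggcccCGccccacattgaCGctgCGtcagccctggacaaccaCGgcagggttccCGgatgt
KRT31: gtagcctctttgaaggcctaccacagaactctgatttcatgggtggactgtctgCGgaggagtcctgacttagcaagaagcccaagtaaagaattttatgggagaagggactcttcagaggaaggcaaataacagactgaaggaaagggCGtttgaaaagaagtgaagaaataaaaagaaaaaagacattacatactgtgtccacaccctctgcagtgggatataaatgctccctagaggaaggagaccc

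BST2, the interferon-inducible protein tetherin that holds budding virions on the cell surface, measured 78.1, 99.1 and 85.1 FPKM under siCHD4 with siDNMT1, against 2.39, 3.56 and 1.94 FPKM under control siRNA with siDNMT1. Levels with decitabine were 32.1, 33.1 and 39.0 FPKM under siCHD4, against 9.74, 3.31 and 3.28 FPKM under control siRNA. BST2 rose without overlap in both backgrounds, where 70.1% (siDNMT1) and 27.1% (decitabine) of all genes tested did not overlap. The difference was 2.01 ± 0.41 log2 (adjusted p = 0.0126), and 1.57 (adjusted p = 0.00756) without control siRNA with decitabine replicate 0, whose BST2 was the highest of the controls.

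DHRS2 and ENTPD2 were well expressed in the controls. DHRS2, a short-chain dehydrogenase, measured 316, 375 and 333 FPKM under siCHD4 with siDNMT1, against 41.3, 33.9 and 34.9 FPKM under control siRNA with siDNMT1. Its decitabine libraries held 54.4, 44.9 and 57.2 FPKM under siCHD4, against 29.4, 18.1 and 16.5 FPKM under control siRNA. DHRS2 rose in both backgrounds without overlap, where 70.1% (siDNMT1) and 27.1% (decitabine) of all genes tested did not overlap. The difference was 1.89 log2 (adjusted p = 0.0316). That call was lost without control siRNA with decitabine replicate 0 (1.65 log2, adjusted p = 0.0621) and held in only 3 of 12 fits with 1 library left out, those without siCHD4 with siDNMT1 replicate 1 or control siRNA with decitabine replicate 1 or 2. ENTPD2, an ectonucleotidase that splits ATP outside cells, averaged 31.9 FPKM under siCHD4 and 7.88 FPKM under control siRNA with siDNMT1. With decitabine ENTPD2 averaged 16.7 FPKM under siCHD4 and 15.0 FPKM under control siRNA, where the groups overlapped. Its difference was 1.78 log2 (adjusted p = 0.0222), lost when any 1 of 5 libraries was left out: siCHD4 with siDNMT1 replicates 0 and 2, control siRNA with siDNMT1 replicates 0 and 1, and siCHD4 with decitabine replicate 2.

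Several others of the largest positive differences were on genes with mean levels of a few FPKM or less with decitabine. IL1RAPL1, a synaptic membrane protein, measured 6.28, 8.09 and 6.43 FPKM under siCHD4 with siDNMT1, against 0.999, 0.870 and 1.01 FPKM under control siRNA with siDNMT1. It stayed at or below 0.369 FPKM in every decitabine library, and the difference was 1.75 log2 (adjusted p = 4.25e-05). S100A1, a calcium-binding protein, measured 9.50, 10.1 and 10.7 FPKM under siCHD4 with siDNMT1, against 1.07, 1.18 and 0.565 FPKM under control siRNA with siDNMT1, and the difference was 1.94 log2 (adjusted p = 0.0017). APOE, a lipid carrier, differed by 1.77 log2 (adjusted p = 0.00674) and SNCG, a synuclein, by 1.94 log2 (adjusted p = 0.00672). APOC2, another lipid carrier, was listed at 0 in all 3 control libraries with siDNMT1 and at 4.94, 2.69 and 2.93 FPKM under siCHD4 with siDNMT1, so no fold is given. With a pseudocount of 0.1 the calls of APOE (adjusted p = 0.0729), IL1RAPL1 (adjusted p = 0.0609) and SNCG (adjusted p = 0.0932) were lost.

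Of all genes tested, 215 had a mean under 0.5 FPKM in both control groups. Of these 97 had a higher difference and 0 a lower one. A gene this low was tested only because libraries of other groups were high, so these counts are no evidence of direction.

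Many cancer-testis and germline genes rose in both backgrounds, and the rise was called larger with siDNMT1 for a minority. Of 116 genes listed, 60 were tested, many of which passed the filter through siCHD4 libraries, so the counts describe these genes and cannot stand for the whole list. siCHD4 raised 55 of the 60 with siDNMT1 (24.8% of all genes) and 41 with decitabine (3.26% of all genes), with median effects of 1.44 and 0.81 log2. The difference was called higher for 23 (4.16% of all genes) and lower for 0, and its median was 0.46 log2 against -0.02 over all genes tested. The number called higher was 5 with a pseudocount of 0.1, 20 without control siRNA with decitabine replicate 0, and 24 of 95 without the filter.

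TEX19, a germ cell protein that restrains transposable elements in mice, measured 54.6, 63.1 and 53.6 FPKM under siCHD4 with siDNMT1, against 0.357, 0.327 and 0.378 FPKM under control siRNA with siDNMT1. Decitabine libraries showed 16.2, 15.5 and 16.4 FPKM under siCHD4, against 1.54, 0.210 and 0.222 FPKM under control siRNA. The siCHD4 libraries were far above their controls in both backgrounds, with effects of 5.42 ± 0.21 and 3.45 ± 0.21 log2. The difference was 1.97 ± 0.30 log2 (adjusted p = 0.0025), and 1.61 (adjusted p = 2.33e-04) without control siRNA with decitabine replicate 0. With a pseudocount of 0.1 the TEX19 call was lost (adjusted p = 0.0613).

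MAGEC2, a MAGE family protein that binds ubiquitin ligases, measured 9.46, 14.0 and 10.6 FPKM under siCHD4 with siDNMT1, against 0.230, 0.190 and 0.244 FPKM under control siRNA with siDNMT1. Given decitabine, cells had 2.52, 3.12 and 2.38 FPKM under siCHD4, against 0.498, 0.135 and 0.161 FPKM under control siRNA. Its difference was 1.78 ± 0.19 log2 (adjusted p = 2.36e-04). MAGEA10, another MAGE family gene, measured 3.33, 2.65 and 3.24 FPKM under siCHD4 with siDNMT1 and 0.854, 0.821 and 0.918 FPKM under siCHD4 with decitabine, with no control library above 0.0494 FPKM in either background. VCX3A and VCX3B, X-linked germline genes, were listed at 0 in all 3 controls with decitabine, so no fold is given. VCX3A measured 9.55, 11.1 and 11.5 FPKM under siCHD4 with siDNMT1 and 2.57, 1.48 and 1.97 FPKM under siCHD4 with decitabine. VCX, MAGEA and SSX genes have near-identical copies, among which the authors' counting could divide reads.

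Mesenchymal transition genes, which encode matrix, cytoskeletal and secreted proteins of motile cells, were mostly raised with siDNMT1. Of 28 listed, 21 were tested. siCHD4 raised 17 and lowered 2 with siDNMT1 (24.8% and 24.6% of all genes), and raised 8 and lowered 1 with decitabine (3.26% and 1.31% of all genes). The difference was higher for 8 and lower for 1 (4.16% and 4.24% of all genes), with a median of 0.66 log2 against -0.02 over all genes. With no filter 27 were tested, 6 higher and 1 lower, with a median of 0.46 log2. FN1 reached 1 FPKM only under siCHD4 in these 4 groups, so the counts cannot stand for the whole list. The 8 fell to 2 without siCHD4 with siDNMT1 replicate 0 or siCHD4 with decitabine replicate 2, to 3 without siCHD4 with siDNMT1 replicate 2 or control siRNA with siDNMT1 replicate 1, and to 4 without control siRNA with siDNMT1 replicate 0, siCHD4 with decitabine replicate 0 or siCHD4 with decitabine replicate 1.

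CTGF, a secreted matrix-associated protein induced by YAP signalling, measured 8.89, 7.86 and 8.28 FPKM under siCHD4 with siDNMT1, against 1.2, 1.17 and 1.33 FPKM under control siRNA with siDNMT1. For the decitabine background, values were 2.57, 2.76 and 2.35 FPKM under siCHD4, against 3.12, 1.70 and 1.52 FPKM under control siRNA, and these groups overlapped. The difference was 1.84 ± 0.34 log2 (adjusted p = 0.00674), and 1.62 (adjusted p = 0.0122) without control siRNA with decitabine replicate 0. FN1, which encodes fibronectin, measured 2.33, 2.20 and 2.37 FPKM under siCHD4 with siDNMT1 and 1.04, 0.822 and 0.957 FPKM under siCHD4 with decitabine, with controls at or below 0.415 FPKM. Its difference was 0.66 log2 (adjusted p = 0.00953), a call lost with a pseudocount of 0.1 (adjusted p = 0.189).

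S100A4, a calcium-binding protein of motile cells, went the other way within the list. It measured 872, 839 and 868 FPKM under siCHD4 with siDNMT1, against 2225, 2013 and 2202 FPKM under control siRNA with siDNMT1. With decitabine it measured 816, 800.3 and 810 FPKM under siCHD4, against 1175, 1071 and 1030 FPKM under control siRNA. S100A4 fell in both backgrounds to similar levels while the control levels differed, and the difference was -0.89 ± 0.14 log2 (adjusted p = 0.0025). Fibroblast markers moved beside these genes: their summed level was 14.2 to 16.0 FPKM under siCHD4 against 3.99 to 4.11 FPKM under control siRNA with siDNMT1, and 6.79 to 7.70 against 0.624 to 3.90 FPKM with decitabine. Of 9 such markers 3 were tested, COL3A1 was listed at 0 in every library, and their part in the result was not tested.

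DNA replication genes formed the main group with a lower difference. All 54 listed genes were tested; siCHD4 lowered 43 with siDNMT1 (24.6% of all genes) and 1 with decitabine, near the share of all genes (1.31%), with medians of -0.69 and -0.20 log2. The difference was called lower for 14 (4.24% of all genes) and higher for 0, and its median was -0.44 log2. The 14 fell to 5 without siCHD4 with siDNMT1 replicate 0 or siCHD4 with decitabine replicate 2, to 8 without siCHD4 with siDNMT1 replicate 2, and to 4 and 6 without control siRNA with siDNMT1 replicates 0 and 1. It was 10 without control siRNA with decitabine replicate 0, and 30 in a fit on the 12 libraries alone.

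RFC4, a subunit of the clamp loader, measured 26.6, 26.2 and 26.6 FPKM under siCHD4 with siDNMT1, against 63.1, 59.2 and 62.2 FPKM under control siRNA with siDNMT1. In the decitabine background it measured 50.3, 46.1 and 51.9 FPKM under siCHD4, against 59.4, 56.0 and 63.1 FPKM under control siRNA. RFC4 did not overlap between siRNAs in either background, as 70.1% (siDNMT1) and 27.1% (decitabine) of all genes tested did not. Its fall was called only with siDNMT1, and the difference was -0.92 ± 0.16 log2 (adjusted p = 0.00471). RRM1, the large subunit of ribonucleotide reductase, differed by -0.72 log2 (adjusted p = 0.00538). POLE2, a subunit of DNA polymerase epsilon, differed by -0.89 log2 (adjusted p = 0.0133), and PRIM1, the primase catalytic subunit, by -0.63 log2 (adjusted p = 0.0134). Those 4 calls held with each of the 12 libraries left out in turn. Mitotic genes showed no called difference among 42 tested, and replication-dependent histone genes none among 61, against 8.4% of all genes.

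Cytosolic ribosomal protein genes fell broadly with siDNMT1 but rarely passed the test of the difference. Of 78 tested, siCHD4 lowered 68 with siDNMT1 (24.6% of all genes) and 2 with decitabine, near the share of all genes (1.31%), with medians of -0.62 and -0.34 log2. The difference was negative in 76 of 78, with a median of -0.27 log2, and called for 1, RPL22 (-0.44 log2, adjusted p = 0.0304). That call was lost when any 1 of 5 libraries was left out: siCHD4 with siDNMT1 replicates 0 and 2, control siRNA with siDNMT1 replicates 0 and 1, and siCHD4 with decitabine replicate 2. It was also lost with quantile normalization (adjusted p = 0.0872) and with the replicate number as a block (adjusted p = 0.0524).

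**Figure D3:**
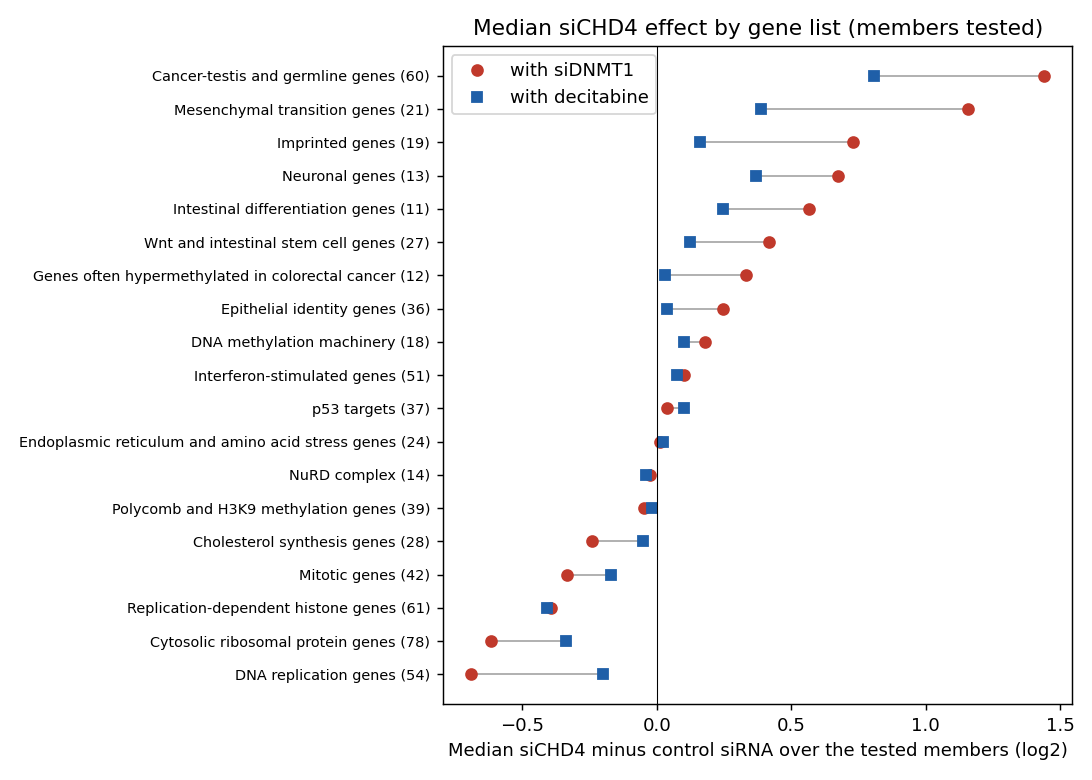
Median siCHD4 effect (log2 of FPKM + 1) over the tested members of each gene list with at least 10 tested, with siDNMT1 (circles) and with decitabine (squares); the number tested stands in parentheses. The medians are farthest apart for mesenchymal, cancer-testis, imprinted and DNA replication genes, and nearly coincide for replication-dependent histone, interferon-stimulated and NuRD genes.

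Among epithelial regulators, EHF, an ETS family transcription factor of epithelial cells (chr11:34642640-34684835, GRCh37), had the largest negative difference of its list. It measured 21.1, 20.5 and 19.8 FPKM under siCHD4 with siDNMT1, against 84.6, 92.6 and 86.2 FPKM under control siRNA with siDNMT1. Its decitabine libraries held 36.5, 41.1 and 40.6 FPKM under siCHD4, against 50.8, 82.7 and 80.9 FPKM under control siRNA. EHF fell without overlap in both backgrounds, where 70.1% (siDNMT1) and 27.1% (decitabine) of all genes tested did not overlap. The difference was -1.24 ± 0.20 log2 (adjusted p = 0.00356), and -1.01 (adjusted p = 6.15e-04) without control siRNA with decitabine replicate 0, the lowest of the controls.

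KRT18, a simple epithelial keratin, measured 267, 283 and 272 FPKM under siCHD4 with siDNMT1, against 839, 819 and 825 FPKM under control siRNA with siDNMT1. Levels with decitabine were 541, 517 and 534 FPKM under siCHD4, against 1193, 808 and 810.1 FPKM under control siRNA. Its difference was -0.80 log2 (adjusted p = 0.0234) and -0.98 (adjusted p = 0.00171) without control siRNA with decitabine replicate 0, and the call was lost when any 1 of 5 other libraries was left out. These were siCHD4 with siDNMT1 replicates 0 and 2, control siRNA with siDNMT1 replicates 0 and 1, and siCHD4 with decitabine replicate 2. In the list of 36 epithelial identity genes, 2 differences were higher and 3 lower (13.9%, against 8.4% of all genes, 4.16% higher and 4.24% lower).

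Outside the lists, the largest negative differences included ALDH3A1, an aldehyde dehydrogenase, at -1.16 log2 (adjusted p = 0.00138), and NAPG, a SNARE disassembly protein, at -1.09 log2 (adjusted p = 0.00173). ADK, adenosine kinase, measured 20.2, 21.3 and 20.4 FPKM under siCHD4 with siDNMT1, against 53, 49.5 and 45.3 FPKM under control siRNA with siDNMT1. With decitabine ADK measured 30.9, 30.5 and 36.8 FPKM under siCHD4, against 31.8, 40.8 and 38.2 FPKM under control siRNA, where the groups overlapped. The difference for ADK was -1.05 log2 (adjusted p = 0.00224). MRPL47, a mitochondrial ribosomal protein, differed by -1.02 log2 (adjusted p = 0.00708).

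**Figure D4:**
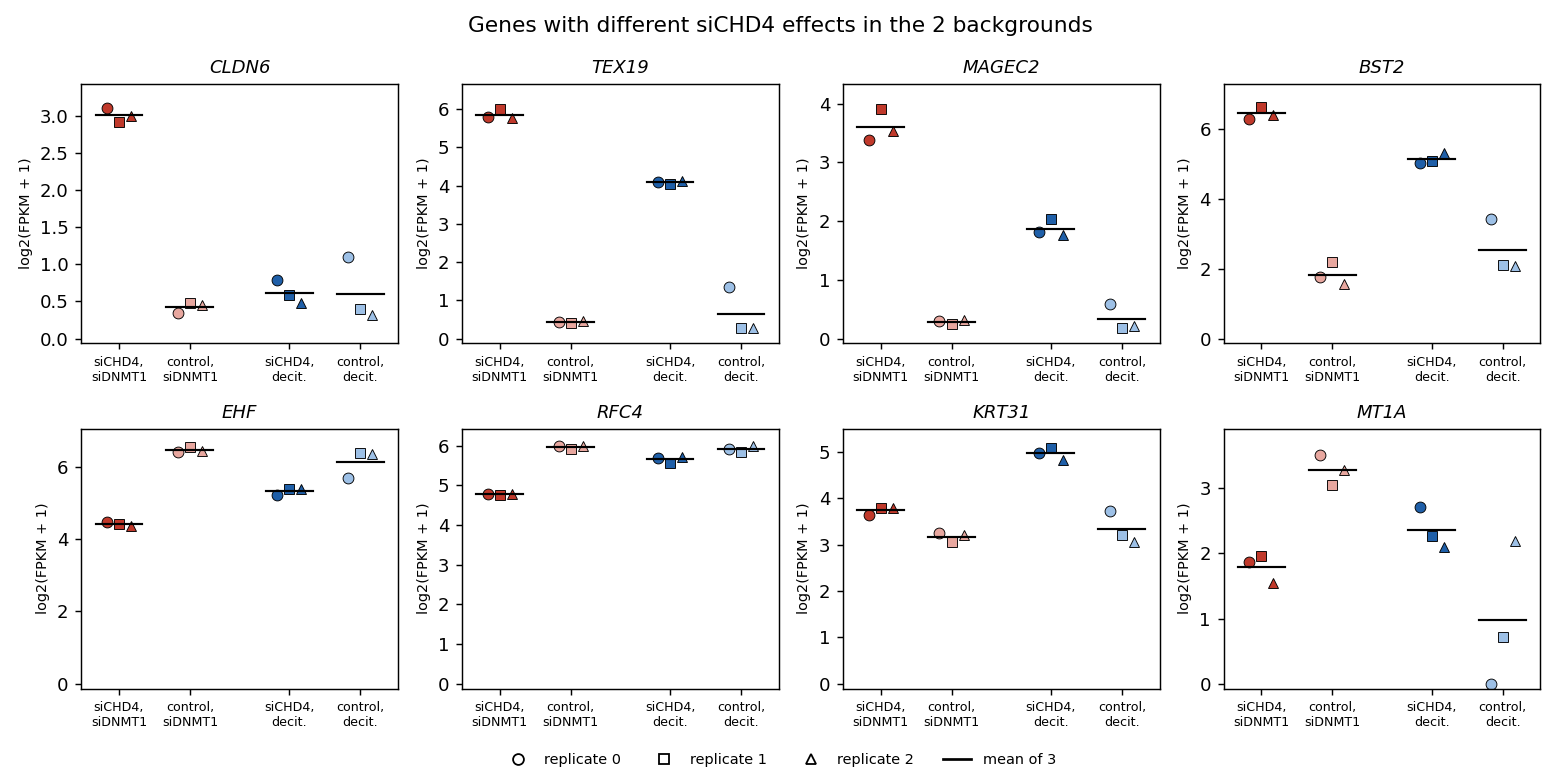
Levels as log2(FPKM + 1) of 8 genes in each library, with siDNMT1 at the left and decitabine (decit.) at the right of each panel; symbols are replicates and bars are means of 3. CLDN6 is high under siCHD4 only with siDNMT1, and TEX19, MAGEC2 and BST2 rise in both backgrounds. EHF and RFC4 are lowest under siCHD4 with siDNMT1, and KRT31 is highest under siCHD4 with decitabine. The MT1A means move in opposite directions, with overlapping groups in the decitabine background.

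Few genes responded more with decitabine. KRT31, a hair keratin (chr17:39549973-39553860, GRCh37), measured 11.5, 12.9 and 12.8 FPKM under siCHD4 with siDNMT1, against 8.53, 7.34 and 8.24 FPKM under control siRNA with siDNMT1. Decitabine libraries showed 30.6, 33 and 27.6 FPKM under siCHD4, against 12.2, 8.29 and 7.39 FPKM under control siRNA. KRT31 rose in both backgrounds without overlap, where 70.1% (siDNMT1) and 27.1% (decitabine) of all genes tested did not overlap. The difference was -1.06 ± 0.27 log2 (adjusted p = 0.029), or -1.26 (adjusted p = 0.0118) without control siRNA with decitabine replicate 0. Of the 12 libraries left out in turn, the call held only for siCHD4 with siDNMT1 replicate 1 and control siRNA with decitabine replicates 0 and 1, and it was lost with pseudocounts of 0.1 (adjusted p = 0.369) and 0.5 (adjusted p = 0.0787).

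MT1A, a metallothionein that binds zinc and copper (chr16:56672578-56673999, GRCh37), was called in opposite directions. It measured 2.64, 2.87 and 1.92 FPKM under siCHD4 with siDNMT1, against 10.4, 7.26 and 8.73 FPKM under control siRNA with siDNMT1. Given decitabine, cells had 5.58, 3.81 and 3.31 FPKM under siCHD4, against 0, 0.647 and 3.58 FPKM under control siRNA, and these groups overlapped. The effects were -1.49 ± 0.36 log2 (adjusted p = 0.00356) with siDNMT1 and 1.39 ± 0.36 log2 (adjusted p = 0.0407) with decitabine. Their difference was -2.88 log2 (adjusted p = 0.00573), and -2.40 (adjusted p = 0.00574) without control siRNA with decitabine replicate 0, where MT1A was listed at 0. The decitabine effect of MT1A alone is given only with that library, so its rise with decitabine may depend on it. In all, 5 genes were called in opposite directions, and 1 with a pseudocount of 0.1. KRT85, another hair keratin, was lower with siDNMT1 and higher with decitabine, and the small nucleolar RNA SNORD83B was too, though listed at 0 in all 3 controls with decitabine, so no fold is given. RTN4RL2, a receptor of the nervous system, and UNC13D, a vesicle priming protein, were higher with siDNMT1 and lower with decitabine.

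Control levels were also compared. Between the backgrounds under control siRNA, 608 genes differed (4.75%), 344 higher (2.69%) and 264 lower (2.06%) with siDNMT1. Of the 1076 genes with different siCHD4 effects, 940 showed no called difference between the control groups. Among the 533 higher genes, 61 had a control level called lower with siDNMT1 (2.06% of all genes). Among the 543 lower genes, 65 had one called higher with siDNMT1 (2.69% of all genes). Both comparisons use the same 6 control libraries, so they are not independent.

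The unequal depletion of CHD4 was set against each gene by scaling. The siDNMT1 effect was multiplied by 0.373, the ratio of the CHD4 log2 changes, before the decitabine effect was subtracted. After scaling, 50 genes were called (0.39% of those tested): 6 higher (0.0468%) and 44 lower (0.344%), and 961 had an unadjusted p below 0.05. Only 18 of the 1076 genes were also called after scaling, and 32 of the 50 had not been called before. A negative scaled difference on a raised gene means that its decitabine effect exceeded the CHD4 ratio. All 44 lower genes were raised with decitabine (3.26% of all genes), and 39 of them in both backgrounds, as were 395 of all 12809 genes. The decitabine effect enters this contrast whole and the siDNMT1 effect reduced. A negative call therefore favours genes raised with decitabine, so these counts are no evidence of direction. The ratio was 0.447 without control siRNA with decitabine replicate 0, which left 4 higher and 42 lower genes, of which 25 were among the 50. The ratio carries its own error, which this test does not include, and proportionality on the log2 scale was assumed and not tested.

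Apart from MT1A and SNORD83B, the most negative scaled differences were those of HBE1, LGALS1 and TEX19. HBE1, the embryonic beta-like globin, measured 13.2, 10.6 and 10.9 FPKM under siCHD4 with siDNMT1, against 0, 0 and 0.179 FPKM under control siRNA with siDNMT1. For the decitabine background, values were 6.23, 7.89 and 7.64 FPKM under siCHD4, against 0, 0.399 and 0 FPKM under control siRNA. Its effects were 3.57 and 2.88 log2, the unscaled difference was 0.69 log2 (adjusted p = 0.0683), and the scaled one -1.55 (adjusted p = 0.00124). In these 4 groups HBE1 reached 1 FPKM only under siCHD4, so its rise is no independent evidence of direction. LGALS1, the lectin galectin-1, measured 268, 287 and 254 FPKM under siCHD4 with siDNMT1, against 13.8, 7.78 and 14.3 FPKM under control siRNA with siDNMT1. With decitabine it measured 61.1, 50.8 and 62.9 FPKM under siCHD4, against 6.37, 5.20 and 6.04 FPKM under control siRNA. Its scaled difference was -1.46 log2 (adjusted p = 0.0162), and that of TEX19 was -1.43 log2 (adjusted p = 0.00833). Scaled values of single genes, here and below, are given only with control siRNA with decitabine replicate 0 included. That library had the highest TEX19 of its group.

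Of the 60 cancer-testis genes, 10 had a lower scaled difference and 0 a higher one (0.344% and 0.0468% of all genes). Many of the 60 passed the filter through siCHD4 libraries, so these counts cannot stand for the whole list. The 10 became 4 with a pseudocount of 0.1 and 5 without siCHD4 with decitabine replicate 1. It was 12 without control siRNA with decitabine replicate 0. Some had siCHD4 effects of similar size in both backgrounds; the following 3 were chosen after their values were seen. SSX3, a cancer-testis transcriptional repressor, averaged 14.8 ± 0.284 FPKM under siCHD4 and 4.98 ± 0.199 FPKM under control siRNA with siDNMT1 (SD, n = 3 each). With decitabine SSX3 averaged 15.4 ± 1.82 FPKM under siCHD4 and 4.40 ± 1.09 FPKM under control siRNA. MAGEA8 had effects of 1.53 log2 with siDNMT1 and 1.58 log2 with decitabine, and TNC, the matrix protein tenascin-C of the mesenchymal list, 1.14 and 1.38 log2. Their unscaled differences did not pass the test (adjusted p = 0.456 for SSX3, 0.883 for MAGEA8 and 0.301 for TNC).

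Intestinal KRT20, a keratin of differentiated enterocytes, measured 1.55, 1.75 and 1.46 FPKM under siCHD4 with siDNMT1, against 0, 0.213 and 0.273 FPKM under control siRNA with siDNMT1. In the decitabine background it measured 3.63, 3.65 and 3.92 FPKM under siCHD4, against 0.278, 0.227 and 0.420 FPKM under control siRNA. Its scaled difference was -1.42 log2 (adjusted p = 0.00816), while the unscaled difference was -0.70 log2 (adjusted p = 0.138). KRT20 too reached 1 FPKM only under siCHD4 in these 4 groups.

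The 6 genes with a higher scaled difference included CLDN6 (0.95 log2, adjusted p = 0.036), whose effect with decitabine was 0.02 log2. LCN2, a secreted iron-siderophore carrier, fell in both backgrounds. It measured 2.90, 2.45 and 2.34 FPKM under siCHD4 with siDNMT1, against 7.55, 8.67 and 7.45 FPKM under control siRNA with siDNMT1. Its decitabine libraries held 2.34, 3.69 and 1.64 FPKM under siCHD4, against 9.42, 8.88 and 8.43 FPKM under control siRNA. Its scaled difference was 1.03 log2 (adjusted p = 0.00983) and its unscaled difference 0.20 log2 (adjusted p = 0.574). MSX1, a homeobox factor, showed effects of 0.18 log2 (adjusted p = 0.205) with siDNMT1 and -0.63 log2 (adjusted p = 0.00381) with decitabine, and an unscaled difference of 0.81 log2 (adjusted p = 0.011).

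Few genes of the machinery around CHD4 and DNMT1 passed the test of the difference. Of 14 tested NuRD genes, 2 had a lower difference (14.3%, against 4.24% lower and 8.4% in either direction over all genes): CHD4 itself and HDAC1, a deacetylase subunit. HDAC1 measured 72.5, 76.5 and 72.4 FPKM under siCHD4 with siDNMT1, against 117, 109 and 110.1 FPKM under control siRNA with siDNMT1. Its difference was -0.37 log2 (adjusted p = 0.0472), and the call held with 2 of 12 libraries left out and was lost without control siRNA with decitabine replicate 0 (adjusted p = 0.062). It was also lost with a pseudocount of 0.1 (adjusted p = 0.0562), the 5 FPKM filter (adjusted p = 0.0515), median-ratio rescaling (adjusted p = 0.056), the replicate block (adjusted p = 0.0703) and no trend (adjusted p = 0.0537). Of 18 DNA methylation genes, 1 differed (5.56%, against 8.4% of all genes): ZBTB4, a methyl-CpG binding zinc finger protein, by 0.87 log2 (adjusted p = 0.0155), lost without siCHD4 with siDNMT1 replicate 0 (adjusted p = 0.0512).

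Interferon-stimulated genes differed for 6 higher and 0 lower of 51 tested (11.8%, against 8.4% of all genes and 4.16% higher), with a median of -0.01 log2. siCHD4 raised 17 and lowered 8 of them with siDNMT1 (24.8% and 24.6% of all genes), and raised 3 and lowered 0 with decitabine (3.26% and 1.31% of all genes). Besides BST2, the class I antigen gene HLA-B differed. It measured 324, 329 and 325 FPKM under siCHD4 with siDNMT1, against 188, 183 and 193 FPKM under control siRNA with siDNMT1. Levels with decitabine were 233, 231 and 239 FPKM under siCHD4, against 230, 189 and 185 FPKM under control siRNA. All siCHD4 libraries were above their controls, by a small margin over 1 library with decitabine. Of all genes tested, 70.1% (siDNMT1) and 27.1% (decitabine) did not overlap. The difference was 0.56 ± 0.11 log2 (adjusted p = 0.0116), and 0.46 (adjusted p = 0.00894) without control siRNA with decitabine replicate 0.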

How the data were processed

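RNA was sequenced from SW48 cells with stranded libraries after ribosomal RNA removal, per the labels' protocols, which name Trizol or an RNeasy kit without saying which library had which. The deposited table holds FPKM computed by the authors, and read counts were not used here. Per the submitters' processing notes, TopHat2 2.0.9, Cuffdiff 2.1.1 and hg19 were used; the annotation, the filters and how libraries were scaled are not stated there. Of 23599 entries, 28 carrying a date in place of a name were left out. Relative depth was read from the smallest step between low values, so no counting intervals can be given.

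FPKM were taken to log2(FPKM + 1), and the 12809 genes reaching 1 FPKM in 3 or more of 18 libraries were fitted with limma 3.58.1 in R 4.3.3, with 1 mean per group over all 18 libraries (12 residual degrees of freedom) and a trended empirical Bayes prior. The 6 libraries of the other 2 groups entered only the estimate of the spread. Two-sided p-values were adjusted by Benjamini-Hochberg over all tested genes. The fitting was tested on simulated data. The genes named are CHD4 and DNMT1, the 15 largest called differences in each direction, up to 5 called in each pair of opposite directions, the 5 largest scaled differences in each direction, and the 4 members of a described list with the smallest p, with exceptions said in the text. The comparison, members and lists were chosen with earlier results of these data known. Alternatives were other pseudocounts, filters and scalings, a replicate block, weighted libraries, 12 libraries, no trend and each library left out.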

Additional observations from a re-analysis of the deposited data

Results flagged for a closer look

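Among genes not listed at 0 throughout a group, the siCHD4 effects of 4 passed the test in opposite directions in the backgrounds, and their difference passed it too. MT1A differed by -2.88 log2, and its decitabine call is given only with control siRNA with decitabine replicate 0, where it was listed at 0. KRT85 differed by -0.82 log2 (adjusted p = 0.00854): it measured 0.346, 0.377 and 0.157 FPKM under siCHD4 with siDNMT1, against 0.721, 0.545 and 0.810 FPKM under control siRNA with siDNMT1. With decitabine KRT85 measured 1.54, 1.30 and 1.49 FPKM under siCHD4, against 0.973, 0.742 and 0.713 FPKM under control siRNA. In these 4 groups KRT85 reached 1 FPKM only under siCHD4 with decitabine, the group where it is highest, so its call is no independent evidence of direction.

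RTN4RL2 differed by 0.93 log2 (adjusted p = 0.00677). It measured 1.12, 1.02 and 0.851 FPKM under siCHD4 with siDNMT1, against 0.195, 0.537 and 0.619 FPKM under control siRNA with siDNMT1, and 0.927, 0.798 and 0.734 FPKM under siCHD4 with decitabine, against 1.69, 1.26 and 1.54 FPKM under control siRNA with decitabine. UNC13D differed by 0.95 log2 (adjusted p = 0.00983). It measured 2.46, 2.44 and 2.75 FPKM under siCHD4 with siDNMT1, against 1.87, 1.65 and 1.51 FPKM under control siRNA with siDNMT1, and 2.03, 2.12 and 1.83 FPKM under siCHD4 with decitabine, against 4.46, 2.95 and 2.81 FPKM under control siRNA with decitabine.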

How the results depend on the processing

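The depth of the libraries is known only in relative terms, and 3 libraries a group limit the calls. No result reversed under the alternatives run. Outside these counts, 1630 comparisons with an alternative kept the call of a gene or held a list count within a fixed fold. The call of a gene was lost in 238, and a list count changed by more than that fold in 137. Where no value is given for a cause, the cause was not tested.

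With a pseudocount of 0.1, 280 genes were higher, 27 were called after scaling, 1 gene was called in opposite directions and 43 list members had a called difference; with 0.5, 3 were opposite. With no filter 88 were called after scaling. With a filter at 5 FPKM, 295 were higher, 306 were called with decitabine, 17 after scaling and 1 opposite. Quantile normalization left 2 opposite. Library weights gave 2541 higher, 3085 lower, 3707 with decitabine, 434 after scaling, 59 opposite, 356 list members, 3827 between controls and a CHD4 effect with decitabine of -0.54 (adjusted p = 5.24e-05). A fit on the 12 libraries gave 904 higher, 1002 lower, 1061 with decitabine, 132 list members, 990 between controls and a CHD4 effect with decitabine of -0.46 (adjusted p = 0.00974). With the ratio taken from the share of CHD4 lost (0.478), chosen after the data were seen, 18 were called after scaling.

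With each library left out in turn, higher genes ranged from 190 to 670, lower from 113 to 805, with siDNMT1 from 5022 to 7161, with decitabine from 295 to 641, after scaling from 20 to 47, opposite from 1 to 4, between controls from 151 to 855, list members from 38 to 95 and named genes from 46 to 75. The CHD4 difference ranged from -0.83 to -0.68 log2, its effect with siDNMT1 from -1.28 to -1.18 and with decitabine from -0.55 to -0.41.

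The replicate number as a block gave 355 higher, 337 lower, 2 opposite and 361 between controls. The numbers were not taken to pair libraries: residuals of 18 same-numbered pairs correlated between -0.138 and 0.122, and 3 of 12 libraries correlated best with their own number.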

Other observations

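Imprinted genes are expressed from 1 parental copy. Of 19 tested, siCHD4 raised 14 with siDNMT1 (24.8% of all genes) and 2 with decitabine (3.26% of all genes). The difference was higher for 2 and lower for 0 (10.5%, near the 8.4% of all genes), with a median of 0.44 log2. Only 19 of 38 listed passed the filter, so the counts cannot stand for the whole list. With no filter 33 were tested, 5 higher and 0 lower, with a median of 0.24 log2. GRB10, an imprinted signalling adaptor, measured 11.7, 11.2 and 10.6 FPKM under siCHD4 with siDNMT1, against 1.46, 1.69 and 1.5 FPKM under control siRNA with siDNMT1. With decitabine it measured 4.88, 4.98 and 4.86 FPKM under siCHD4, against 1.37, 1.64 and 1.91 FPKM under control siRNA. The difference was 1.09 log2 (adjusted p = 0.0177), lost without siCHD4 with siDNMT1 replicate 0 (adjusted p = 0.0518).

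The cytidine deaminase APOBEC3G fell in both backgrounds. It measured 0.669, 0.727 and 0.552 FPKM under siCHD4 with siDNMT1, against 7.21, 7.31 and 8.37 FPKM under control siRNA with siDNMT1. With decitabine it measured 1.12, 1.07 and 1.38 FPKM under siCHD4, against 17.5, 4.84 and 5.36 FPKM under control siRNA. Its difference was -0.37 log2 (adjusted p = 0.581), and -0.91 (adjusted p = 0.0133) without control siRNA with decitabine replicate 0, the highest library.

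Of 28 cholesterol synthesis genes tested, 1 difference was higher and 2 lower (10.7%, near the 8.4% of all genes). TM7SF2, a sterol reductase, differed by 1.11 log2 (adjusted p = 0.00767), MSMO1, a sterol methyl oxidase, by -0.70 log2 (adjusted p = 0.00818), and ACAT2, a cytosolic acetyl-CoA acetyltransferase, by -0.98 log2 (adjusted p = 0.0025). Neuronal genes differed for 2 higher of 13 tested (15.4%, against 8.4% of all genes and 4.16% higher), and with no filter for 6 higher of 39. Wnt and intestinal stem cell genes differed for 1 higher of 27 (3.7%, against 8.4% of all genes). This was DKK1, a secreted Wnt inhibitor, at 0.69 log2 (adjusted p = 0.0125, or 0.102 with a pseudocount of 0.1). Genes of amino acid and endoplasmic reticulum stress differed for 2 higher of 24 (8.33%), p53 targets for 1 higher and 2 lower of 37 (8.11%), and Polycomb and H3K9 methylation genes for 3 higher and 1 lower of 39 (10.3%), shares near the 8.4% of all genes. Intestinal differentiation genes differed for 0 of 11, with 6 raised by siCHD4 with siDNMT1 and 3 with decitabine (24.8% and 3.26% of all genes). Genes often hypermethylated in colorectal cancer differed for 3 higher and 1 lower of 12 (33.3%, against 8.4% of all genes), and with no filter for 4 higher and 1 lower of 45. Only 12 of 50 listed were tested, so the share cannot stand for the whole list. With a pseudocount of 0.1, 0 were higher and 0 lower. Globin genes differed for 1 higher of 5 (20%, against 8.4% of all genes). Summed blood cell markers were 7.72 to 9.11 FPKM under siCHD4 against 2.78 to 4.45 under control siRNA with siDNMT1, and 5.47 to 6.32 against 4.25 to 6.24 with decitabine, with CD3D listed at 0; their part in these results was not tested. Summed endothelial markers stayed at or below 1.08 FPKM and summed neural and glial markers at 13.0 to 15.9 FPKM, mostly MBP, in the 12 libraries.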
